A study of Mus musculus with 8 samples.

Results

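Macrophages with high Spp1 were taken from 2 single-cell libraries of tumors grown from FC1242, a mouse KPC pancreatic cancer line. They were chosen by UMIs, the counts of distinct RNA molecules, each scaled to 10000 UMIs of the cell. Barcodes with 1500 UMIs or more, 200 genes or more and no more than 10% of UMIs from mitochondrial genes were called cells. A member had a sum of C1qa, C1qb and C1qc of at least 10, keratins Krt8, Krt18 and Krt19 together under 20, fewer than 3 of 5 cell cycle genes detected (Mki67, Top2a, Birc5, Cdk1 and Ube2c), Cd5l under 5 and Spp1 of at least 20. In all 817 of 9895 called cells met this rule, 50 of 2277 in the primary library and 767 of 7618 in the liver library. The comparison class, called other C1q-positive cells, met every criterion but Spp1 and held 1352 and 1623 cells.

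All groups were C57BL/6 mice injected with 100000 FC1242 cells, either into the pancreas (primary tumors) or to give liver metastatic tumors, and harvested after 3 weeks. CD45+ cells, the leukocytes, were sorted from tumors of each site into 1 single-cell library per site, and whole tumors gave 3 bulk RNA-seq libraries per site. The tumors came from 1 transplanted line, the labels name neither sex nor age nor how many mice each sorted library pooled, and nothing says whether bulk replicates were separate mice, so p-values measure only the spread between these samples. With 1 single-cell library per site, site and library cannot be told apart, and no test was made on cells.

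Spp1 encodes osteopontin, a secreted phosphoprotein that binds CD44 and integrins such as those with the Itgav chain. Macrophages with high Spp1 are known from many tumors, where they often carry lipid-handling and lysosomal genes such as Gpnmb, Lpl, Fabp5 and Trem2, a profile also seen in lipid-associated macrophages of adipose tissue. C1qa, C1qb and C1qc encode the chains of complement C1q and mark tissue macrophages. On the mouse assembly GRCm38 with GENCODE vM21, Spp1 lies at chr5:104435118-104441050, Gpnmb at chr6:49036546-49070929, Lpl at chr8:68880491-68907448 and C1qa at chr4:136895917-136898803, all protein-coding genes.

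Spp1-high macrophages made up 3.57% of the 1402 primary cells passing the other criteria (exact 95% Clopper-Pearson interval 2.66 to 4.67) and 32.1% of the 2390 liver cells (30.2 to 34.0). These intervals, like all those given below, cover counting error only. The median Spp1 level was 36.2 UMIs per 10000 (range 20.02 to 328) in the primary members and 51.5 (20.1 to 1025) in the liver members. Most primary members lay near the threshold: 32 of 50 were between 20 and 50, and 4 reached 100 or more. In the liver library 371 of 767 were between 20 and 50 and 193 reached 100 or more.

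**Figure D1:**
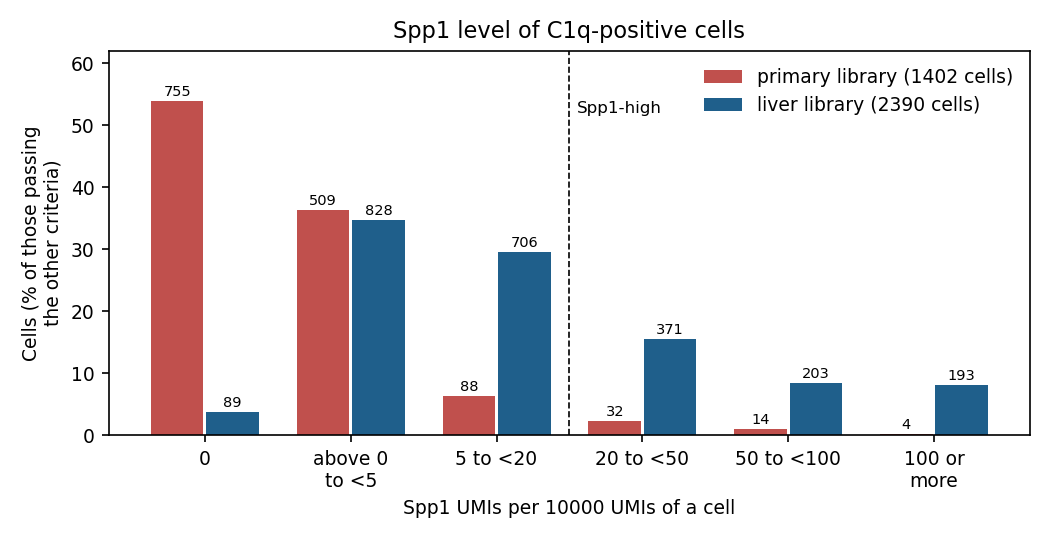
Share of C1q-positive cells that passed the other criteria in each range of Spp1, in UMIs per 10000 UMIs of the cell, for the primary and the liver library, with the number of cells above each bar. The dashed line is the threshold of 20, and 50 primary and 767 liver cells lie to its right.

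The Spp1 threshold cut through a continuous range. Just inside it, at 20 to under 25, were 9 primary and 102 liver cells, and just outside, at 15 to under 20, were 22 and 107. Of the other C1q-positive cells, 755 of 1352 in the primary library (55.8%) had no Spp1 UMI, against 89 of 1623 in the liver library (5.48%). A further 5 primary and 328 liver C1q-positive cells had Spp1 of at least 20 but failed another criterion. In the liver these were 256 with high keratins, 90 with cell cycle genes and 3 with Cd5l, some failing more than 1.

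Barcodes too small to be cells also carried Spp1. Those of 10 to 99 UMIs, which mostly hold RNA from outside cells, held Spp1 at 1216 CPM (summed UMIs per 1000000 UMIs of the class) in the primary and 1751 in the liver library. T cells, taken here as a class with little Spp1, had 314 and 350 CPM. After each cell was thinned to 1500 UMIs, a Spp1 UMI was found in 4.3% of primary and 40.7% of liver T cells (median depths before thinning 10702 and 6402 UMIs). Spp1 stood at 5314 and 9282 CPM in the members and at 124 and 595 CPM in the other C1q-positive cells, and the rule fixed on which side of these backgrounds the members lie. Keratin-rich cells that came through the sort also held Spp1, at 4650 and 1930 CPM. They carried 58.3% of the Spp1 UMIs of all called primary cells and 25.1% in the liver library, and the members carried 13.6% and 48.0%. Called cells with C1q under 10 that were not T cells, neutrophils or keratin-rich carried 17.4% and 11.5%, at 1622 and 4505 CPM. C1q-positive cells that failed the keratin, cell cycle or Cd5l criterion carried 1.44% and 10.1%, at 266 and 2576 CPM.

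The label was checked against macrophage genes. After thinning to 1500 UMIs, Csf1r, the receptor for the growth factor CSF1, was detected in 42.0% of primary and 41.5% of liver members, in 64.2% and 53.2% of other C1q-positive cells and in 3.48% and 8.85% of T cells (90.0% and 93.2% of members and 11.3% and 15.9% of T cells without thinning). Cd68, a lysosomal glycoprotein of macrophages, was detected in 34.0% and 64.0% of thinned members, 30.5% and 49.8% of other cells and 0.87% and 5.31% of T cells. Gpnmb, a lysosomal and cell surface glycoprotein, and Lpl, lipoprotein lipase, fitted the liver members better than the primary ones. Gpnmb was detected in 433 of 767 liver members but in 8 of 50 primary members, where 1 cell held 62.1% of its UMIs. Lpl was detected in 570 liver and 15 primary members. In T cells, without thinning, Gpnmb was found in 0.87% and 5.31% and Lpl in 0% and 9.73% of primary and liver cells. The 50 primary cells are thus Spp1-high by rule, and in that library most members had no Gpnmb UMI and most had no Lpl UMI.

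Genes of most other cell types were near 0 in the members, with exceptions. Of the T cell, B cell, NK cell, dendritic cell, fibroblast, endothelial and mast cell lists, none had a gene at 50 CPM in the members or the other cells of either library. The 10 T cell genes summed to 3.65 and 5.96 CPM in the primary and liver members, with Cd3d, a chain of the T cell receptor complex, at 0 in the primary members. The 14 epithelial genes summed to 53.5 CPM in the primary members and 654 in the liver members (per cell, 0 to 2.62 and 0 to 58.7 UMIs per 10000), and to 76.5 and 855 in the other cells. Epcam, an epithelial adhesion molecule, was at 0 in the primary members and at 6.2 CPM in the liver ones. The hepatocyte list summed to 659 and 548 CPM in the primary and liver members, of which Trf, the iron carrier transferrin, gave 659 and 516. The neutrophil list summed to 108 and 329 CPM, with S100a8 at 41.4 and 134, and to 166 and 498 CPM in the other cells. The pancreatic acinar list summed to 210 and 25.2 CPM, against 262 and 24.97 in the other cells. The monocyte list was a larger exception, at 2848 and 1703 CPM in the primary and liver members against 1036 and 1822 in the other cells. Its median per cell was 16.4 and 13.8 UMIs per 10000 in members and 4.11 and 15.4 in other cells. The osteoclast list summed to 322 and 534 CPM, against 575 and 468. Median depth was 16539 UMIs in primary and 13200 in liver members, against 13633 and 10262 in other cells, and median mitochondrial UMIs were 4.97% and 4.51% against 5.34% and 4.75%. The libraries shared 7 called barcodes, of which none was a member in both, and 2 member barcodes were called in the opposite library. The doublet caller Scrublet marked 5 primary cells (0.22%) and 1 liver cell (0.0131%), none of them members. At such a share it has not worked in the liver library, so doublets were not removed.

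Members and other C1q-positive cells were compared by summed UMIs within each library. A gene was counted when the classes differed at least 2-fold, their Poisson intervals did not overlap and the higher class had at least 50 CPM. Because Spp1 divided the classes, this is a description of the selection and supports nothing by itself. In the primary library 94 of 3137 genes (3.0%) were higher in the members and 120 (3.83%) lower. In the liver library 13 of 2827 genes (0.46%) were higher and 24 (0.849%) lower. Both libraries shared 8 of 2530 genes in the higher direction (0.316%) and 15 in the lower direction (0.593%), and none passed in opposite directions. The 8 genes were Gpnmb, Fabp5, Lpl, Ctsl, F7, Syngr1, Ccl24 and Cxcl14.

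The 8 genes included 5 of the lipid-associated list: Gpnmb, Fabp5, Lpl, Ctsl and Syngr1. Fabp5, a fatty acid binding protein, stood at 1425 CPM in primary members against 453 in other cells, and at 4392 against 1729 in the liver library. These are ratios of 3.15 (2.96 to 3.35) and 2.54 (2.504 to 2.578). Of the Fabp5 UMIs of the primary members, 27.7% came from 1 cell. After thinning, Fabp5 was detected in 15 of 50 primary members (interval 17.9 to 44.6%). The share of thinned other primary cells, 24.8%, lay within that interval. In the liver library Fabp5 was detected in 77.2% of thinned members and 50.9% of thinned other cells. Lpl stood at 159 against 34.9 in the primary library, a ratio of 4.57, and at 698 against 300 in the liver library, a ratio of 2.33. In the primary members 1 cell held 29.8% of the Lpl UMIs, and Lpl was detected in 16.0% of thinned members and 2.66% of thinned other cells. Ctsl, the lysosomal protease cathepsin L, had a UMI in all 50 primary and 746 of 767 liver members, and 1 liver cell held 4.32% of its UMIs. Its level was 2059 against 742 and 1788 against 835 CPM. In the separate lysosome list 0 of 14 genes were higher in the primary members and 1 of 16 in the liver members. These counts stand beside 3.0% and 0.46% of all genes. The 1 gene was Atp6v0d2, a proton pump subunit of lysosomes.

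Gpnmb stood at 151 against 26.1 CPM in the primary library and at 439 against 158 in the liver library. The primary ratio of 5.78 fell to 2.61 once the cell richest in Gpnmb was left out of each class. Leaving out that cell for each gene in turn also took Syngr1, a vesicle membrane protein, and Ccl24, an eosinophil attractant, under 2-fold in the primary library, at 1.77 for both. F7, coagulation factor VII, was 4.48 and 2.11 times the level of the other cells. Cxcl14, a chemokine of epithelia and some myeloid cells, was 5.19 and 2.07 times that level.

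The stretch before a RefSeq transcription start is shown for Spp1, which defines the cells, and for Gpnmb and Ctsl, which were higher with it in both libraries. Each is the 250 bases before a RefSeq start on GRCm38.p6, read 5′ to 3′ along the gene. Of the 9 genes (Spp1 and the 8), 6 had such a window. Capitals mark matches on either strand to CACGTG (an E-box), TGTGGT (the core bound by Runx factors) or GAGGAAGT (a PU.1 site).
Spp1, chr5:104434861-104435110, plus strand: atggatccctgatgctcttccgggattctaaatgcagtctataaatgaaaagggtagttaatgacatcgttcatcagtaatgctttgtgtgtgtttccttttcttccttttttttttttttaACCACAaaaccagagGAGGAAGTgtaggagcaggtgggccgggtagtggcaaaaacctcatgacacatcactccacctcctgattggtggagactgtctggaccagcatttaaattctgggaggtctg
Gpnmb, chr6:49036268-49036517, plus strand: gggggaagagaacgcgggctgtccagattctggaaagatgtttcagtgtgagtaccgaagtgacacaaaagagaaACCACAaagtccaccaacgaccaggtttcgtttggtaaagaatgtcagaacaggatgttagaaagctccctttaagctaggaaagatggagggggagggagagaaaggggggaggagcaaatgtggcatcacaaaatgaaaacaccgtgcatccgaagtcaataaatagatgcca
Ctsl, chr13:64370521-64370770, minus strand: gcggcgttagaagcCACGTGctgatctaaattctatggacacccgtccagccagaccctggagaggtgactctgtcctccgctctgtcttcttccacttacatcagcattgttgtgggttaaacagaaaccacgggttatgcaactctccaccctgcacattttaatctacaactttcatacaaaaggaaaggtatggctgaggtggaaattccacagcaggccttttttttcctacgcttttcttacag
The Runx core occurred at -128 to -123 before the first Spp1 start and at -175 to -170 before the Gpnmb start, and 14% of 32851 promoter windows hold it. Before the same Spp1 start the PU.1 letters were at -113 to -106 (2.44% of windows), and before the RefSeq start of Ctsl the E-box was at -236 to -231 (6.02%). The Ctsl window lies inside the span of the gene in GENCODE vM21, chr13:64359337-64370890 on the minus strand. By that annotation its bases are within the gene and not before its start. Neither TGANTCA, the letters of an AP-1 site (6.75% of windows), nor DR1, a direct repeat bound by nuclear receptors (0.0335%), was found in these windows. A second RefSeq start of Spp1, with the window chr5:104435942-104436191, held none of the 5 motifs, and that window also lies inside the GENCODE span of its gene. No capitals overlap between motifs. The Runx and PU.1 letters were added after the windows had been read, and a match is a description of the sequence only.

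The counts of the lipid-associated list can be read beside the 3.0% and 0.46% of all genes that were higher. Of 22 such genes at 50 CPM in the primary library, 9 were higher in the members and none lower, with a median log2 ratio of 0.71 beside -0.02 for all genes. Of 23 in the liver library, 6 were higher and none lower, with a median of 0.62 beside -0.01. Summed over its 26 genes the list was lower in the primary members, at 30336 against 36311 CPM, and higher in the liver members, at 48692 against 42349. Trem2, a lipid-sensing receptor, did not pass: it stood at 488 against 307 CPM in the primary and 744 against 594 in the liver library. Apoe, which carries lipids, was the most abundant gene of the list and pointed the opposite way, at 14320 against 27177 CPM in the primary library and 23792 against 27447 in the liver library. Cd36, a fatty acid receptor, was higher in the primary library alone (107 against 18.02 CPM, in 14 of 50 members) and stood at 98.6 against 53.7 in the liver library.

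Antigen presentation genes were lower in the members. Of 8 MHC class II pathway genes at 50 CPM in each library, 6 were lower in the primary and 6 in the liver library, and 5 in both. These counts stand beside 3.83%, 0.849% and 0.593% of all genes. The median log2 ratios of the list were -1.47 and -1.21. H2-Ab1, a class II chain, stood at 2029 against 6027 CPM in the primary and 1236 against 3324 in the liver library. H2-Eb1, the partner chain of another class II pair, stood at 1173 against 5303 and 987 against 2686. Ciita, the transactivator that switches on class II genes, stood at 29.2 against 102 and 22.7 against 92.6. The invariant chain Cd74 was at 6663 against 17231 and 4485 against 9743.

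The rest of the lower set was mixed. Cxcl9, a T cell attractant, stood at 23.1 against 527 CPM in the primary and 26.0 against 114 in the liver library. Mgl2, a lectin of dendritic cells and some macrophages, stood at 10.95 against 99.4 and 14.8 against 53.0. AW112010, an interferon-inducible transcript, stood at 197 against 1023 and 174 against 442, and Jaml, an adhesion molecule, at 122 against 320 and 24.9 against 59.2. Haemoglobin Hbb-bs stood at 0 against 129 and at 150 against 483, and Tspan13, a tetraspanin, at 31.6 against 116 and 20.2 against 52.2. The erythroid list summed to 1.22 against 197 CPM in the primary and 254 against 834 in the liver library, and its part in the Hbb-bs difference was not tested. Of the interferon response list, 4 of 11 genes at 50 CPM were lower in the primary and 2 of 13 in the liver library. These counts stand beside 3.83% and 0.849% of all genes. Cxcl9 was lower in both libraries, and no gene of the list was higher. The list summed to 2692 against 2614 CPM in the primary and 3070 against 3159 in the liver library. In the MHC class I list, H2-K1 stood at 1506 against 1817 and 1095 against 1262 CPM. Of the 10 and 9 genes of this list at 50 CPM, 1 was lower in the primary library and none in the liver library, beside the same shares.

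**Figure D2:**
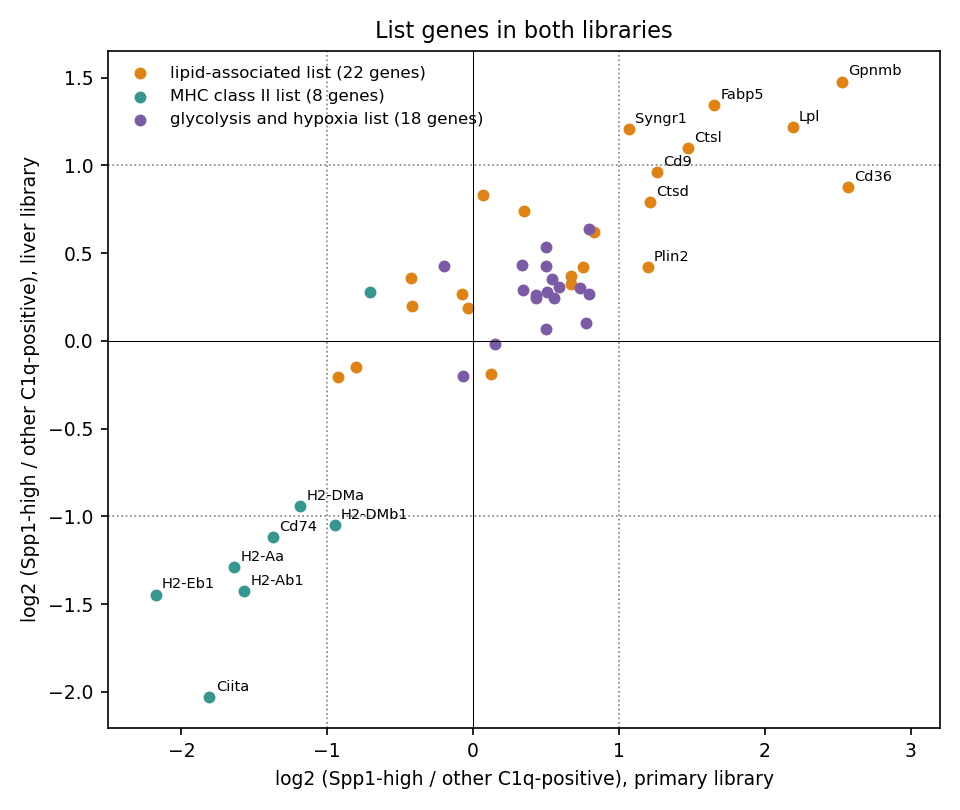
Ratio of CPM in Spp1-high macrophages over other C1q-positive cells on a log2 scale, primary library on the x axis and liver library on the y axis, for genes of 3 lists at 50 CPM in both libraries. Genes past the 2-fold rule in either library are named, and dotted lines mark 2-fold: Gpnmb, Fabp5, Lpl, Ctsl and Syngr1 lie at the upper right and the 7 named class II genes at the lower left.

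Some differences were large in the primary library and small in the liver library, and these genes were picked out after their values were seen. Arg1, the arginine-degrading enzyme arginase 1, stood at 6719 against 1634 CPM in the primary library and 3704 against 2056 in the liver library. Fn1, the matrix protein fibronectin, stood at 3458 against 788 and 2063 against 1341. Saa3, an acute-phase apolipoprotein, stood at 4129 against 478 in the primary library, where 1 cell held 31.9% of its UMIs, and at 458 against 328 in the liver library. Timp1, an inhibitor of matrix proteases, stood at 167 against 11.8 in the primary library, with 40.9% of UMIs in 1 cell, and at 38.7 against 26.2 in the liver library. Chil3, a chitinase-like protein of monocytes and alternatively activated macrophages, stood at 1696 against 267 and 319 against 279.

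In the liver library the genes past the rule that were not past it in the primary library included Fabp4, an adipocyte and macrophage fatty acid binding protein, at 137 against 25.7 CPM. Atp6v0d2 stood at 111 against 23.8, and Il1rn, the interleukin 1 receptor antagonist, at 117 against 43.3. Cx3cr1, the fractalkine receptor of monocytes and macrophages, was lower in the liver members, at 98.9 against 264. Whether these differences differed between the libraries was not tested.

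Glycolysis, matrix and chemokine lists were described in the same way. Their counts stand beside 3.0% of all genes higher and 3.83% lower in the primary members, and 0.46% and 0.849% in the liver members. Of 23 glycolysis and hypoxia genes at 50 CPM in the primary library, 2 were higher in the members, Ankrd37, a hypoxia target, and Egln3, an oxygen sensor, and none of 18 passed in the liver library. Gapdh, the glycolytic enzyme most often used as a reference, stood at 3225 against 2200 and 2599 against 2198 CPM. Of 12 matrix genes in the primary library, 4 were higher (Timp1, Fn1, Adam8 and Ecm1), and of 10 in the liver library none. Ccl6 and Ccl9, myeloid chemokines, were the most abundant of the chemokine list: Ccl6 stood at 3207 against 999 and 5744 against 3204, and Ccl9 at 903 against 262 and 1248 against 688. In the chemokine list 4 of 14 genes were higher and 4 lower in the primary library, and 2 of 13 higher and 1 lower in the liver library.

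Receptors for osteopontin were detected in the members. Of 7 receptor genes at 50 CPM in the primary and 5 in the liver library, none passed the rule. Cd44 stood at 308 against 164 CPM in the primary library and 230 against 208 in the liver library. Itgb1, the shared beta 1 chain, stood at 288 against 245 and 191 against 194, and Itgb5 at 200 against 196 and 150 against 199. The alpha chains Itga4, Itga5 and Itga9 stood at 105 against 204, 56.0 against 31.5 and 59.6 against 89.7 CPM in the primary library, with intervals that did not overlap but ratios under 2-fold either way. The beta 3 chain Itgb3 had no UMI in the primary members.

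The members were not uniform. Arg1 reached 20 UMIs per 10000 in 42 of 50 primary members (84.0%, interval 70.9 to 92.8) and 443 of 767 liver members (57.8%, 54.2 to 61.3). Among other C1q-positive cells the shares were 23.6% and 26.9%. The class II genes H2-Aa, H2-Ab1 and H2-Eb1 together reached 20 in 35 primary members (70.0%) and 325 liver members (42.4%), against 92.8% and 71.6% of other cells. Both were high at once in 29 primary members (58.0%) and 131 liver members (17.1%), and neither in 2 and 130. Arg1-high and class II-low was the largest of the 4 combinations in the liver members, with 312 cells, and both high was the largest in the primary members.

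Several genes in the liver members stood in order of the cell's Spp1 level. From 20 to 50, 50 to 100 and at least 100 UMIs of Spp1 per 10000, Lpl stood at 472, 641 and 1138 CPM and Ctsl at 1276, 1775 and 2663. Cd9, a tetraspanin, stood at 435, 532 and 876, and Atp6v0d2 at 89.3, 99.1 and 161. H2-Ab1 stood at 1373, 1247 and 995 and Csf1r at 415, 370 and 319. Median depth in these 3 ranges was 12661, 13407 and 13950 UMIs. Other liver C1q-positive cells continued the same order below the threshold: Lpl stood at 150 CPM in cells without a Spp1 UMI, 273 above 0 to under 5 and 346 at 5 to under 20.

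Primary members showed the order less clearly. Ctsl stood at 2117, 1790 and 3113 CPM over the 3 ranges, and Arg1 at 6956, 5746 and 10274, the last from 4 cells. At the edge of the rule, primary cells just outside had Arg1 at 4412 and H2-Ab1 at 3838 CPM, and cells just inside had 7306 and 2406. Liver cells just outside had Lpl at 492 and H2-Ab1 at 1793, and those just inside 456 and 1462.

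**Figure D3:**
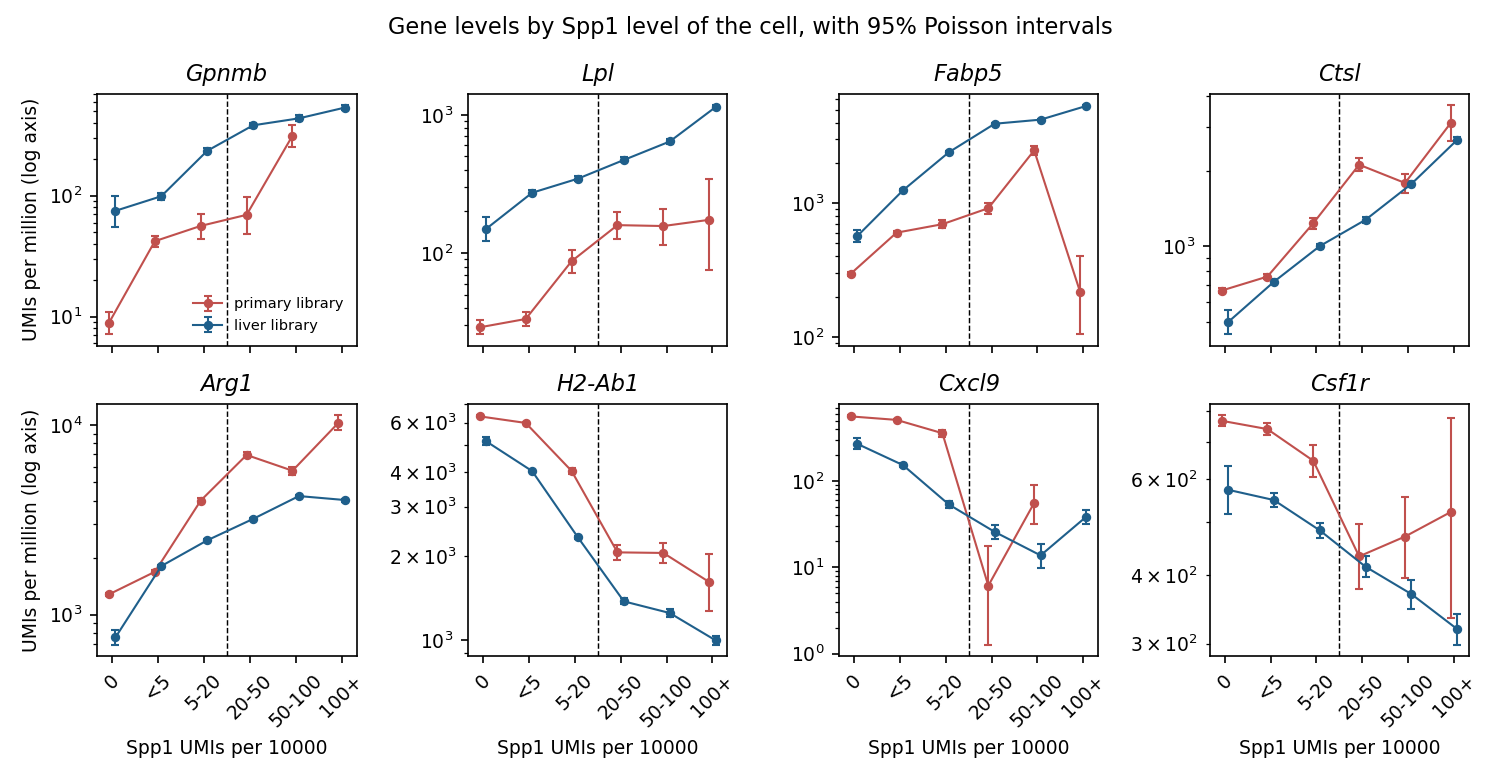
CPM from summed UMIs (log axis) of 8 genes in C1q-positive cells grouped by their Spp1 level, for the primary and liver libraries, with 95% Poisson intervals and a dashed line at the threshold of 20. In the liver library Gpnmb, Lpl, Fabp5 and Ctsl are higher in each higher range and H2-Ab1 and Csf1r lower; the primary range of 100 or more holds 4 cells, and values of 0 (Gpnmb and Cxcl9 there) are not drawn.

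Members of the liver library were then set beside members of the primary library by the same fold rule, with 1 library per site. Of 3054 genes, 131 (4.29%) were higher in the liver members and 227 (7.43%) lower. Among other C1q-positive cells 153 of 3245 genes (4.71%) were higher and 264 (8.14%) lower. The members shared 173 of their 358 genes with the 417 of the other cells in the same direction, which is a property of both classes in these libraries, and none passed in opposite directions.

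Gpnmb and Lpl, genes of the lipid-associated list, were higher in the liver members. Lpl stood at 698 against 159 CPM, 4.38 times higher (3.69 to 5.25), and Gpnmb at 439 against 151, 2.91 times higher (2.43 to 3.51). Without the cell richest in Gpnmb in each class, the Gpnmb ratio was 6.86. In the other cells the ratios were larger, 8.62 for Lpl and 6.05 for Gpnmb. Of 23 listed genes at 50 CPM, 6 were higher in liver members, beside 4.29% of all genes, and none lower, beside 7.43%. In the other C1q-positive cells 8 genes of the list were higher, beside 4.71% of all genes, and 1 lower, beside 8.14%. Ccl2, a monocyte attractant, stood at 957 against 167 CPM and at 509 against 91.0 in other cells. The ratio in members, 5.74, was 9.97 without the richest cell.

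Epithelial transcripts were also higher in the liver members. Tff1, a secreted mucosal peptide, was 34.9 times higher in the liver members and 18.8 times higher in the other liver cells. Tm4sf1, Lgals4, Wfdc2 and Clu, a membrane protein, a galectin and a pair of secreted proteins of epithelia, were 13.1, 12.2, 9.10 and 5.14 times higher. The interval for Tm4sf1 was 6.63 to 30.4. These ratios rest on few primary UMIs, 6 for Tff1, 8 for Tm4sf1, 7 for Lgals4, 18 for Wfdc2 and 50 for Clu, and 1 primary cell held 55.6% of those of Wfdc2 and 66.0% of those of Clu. All 5 epithelial list genes at 50 CPM were higher in the liver library in both classes. Of all genes, 4.29% were higher in the members and 4.71% in the other cells. The keratins Krt8, Krt18 and Krt19 had a median sum of 4.98 UMIs per 10000 in liver members and 0 in primary ones. Of the members, 29 of 50 in the primary and 6 of 767 in the liver library had no keratin UMI. The part of free RNA in these differences was not tested. S100a9, a neutrophil protein, was 15.2 times higher, with a UMI in 134 of 767 liver members and 37.6% of its UMIs in 1 cell. Hbb-bs, with no UMI in the primary members, was at least 41.2-fold higher in the liver ones when 3 UMIs over that class are taken as the floor, and 1 liver cell held 35.8% of its UMIs.

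Mt2, Ddit4, Saa3 and Dusp1 were among the genes lower in the liver members. Mt2, a metallothionein, stood at 86.5 CPM in liver and 1850 in primary members, and Ddit4, an inhibitor of mTOR signalling, at 9.36 and 162. Saa3 stood at 458 and 4129, and Dusp1, a phosphatase of the early stress response, at 97.7 and 675. Ccl5 and Il1r2, a T cell attractant and a decoy receptor, had 92.4% and 63.9% of their primary UMIs in 1 cell. Arrdc3, an arrestin family member, Rnf169, a ubiquitin ligase, and Slc7a2, an arginine transporter, were at 0.11, 0.14 and 0.15 of the primary level. Of 8 genes of the iron and heme list, which holds Mt2, 1 was higher and 3 were lower in the liver members. These counts stand beside 4.29% and 7.43% of all genes, and the median log2 ratio of the list was 0.54. Of 14 genes of the dissociation stress list, 7 were lower in the liver members, beside 7.43% of all genes. In the other liver cells 3 were lower, beside 8.14%. The list summed to 4068 against 6442 CPM in the members, and its part in the other differences was not tested. Of 23 glycolysis and hypoxia genes 10 were lower in liver members, beside 7.43% of all genes, with a median log2 ratio of -0.88. In the other cells 8 were lower, beside 8.14%.

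**Figure D4:**
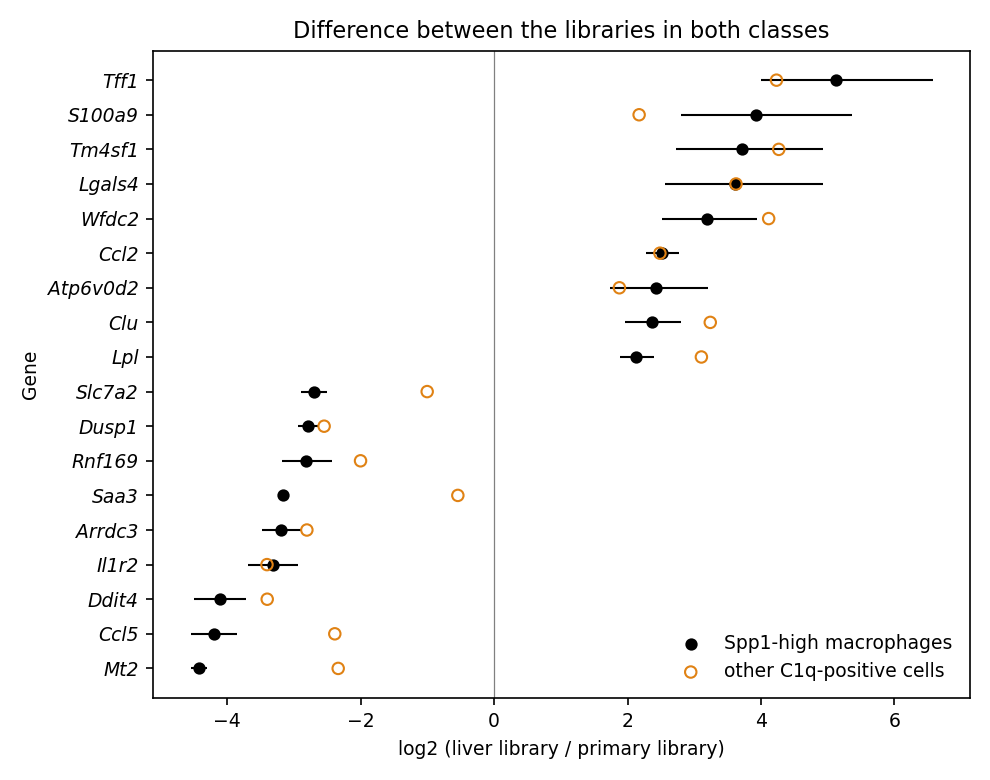
Ratio of the liver over the primary library on a log2 scale for 18 genes, in Spp1-high macrophages (filled, with 95% intervals from counting) and in other C1q-positive cells (open). Both classes lie on the same side of 0 for every gene shown, while Saa3, Slc7a2, Mt2 and Ccl5 are among those that lie farther from 0 in the Spp1-high macrophages. For Ccl5, 1 cell held 92.4% of the UMIs of the primary Spp1-high macrophages.

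Bulk tumors gave the only replicated measure, and it was not used to choose the cells. It reads whole tumors, so fewer cells of a type and less RNA per cell cannot be told apart. Of 16487 genes tested with edgeR's quasi-likelihood test, 2755 (16.7%) were higher in liver tumors and 1032 (6.26%) lower at a Benjamini-Hochberg adjusted p under 0.05. Without liver replicate 2 the numbers were 1810 and 134, without liver replicate 1 414 were lower, and without primary replicate 3 606. Library totals ran from 27481390 to 36743247 reads. Ptprc, which encodes CD45, rose by 1.35 on the log2 scale (SE 0.20, adjusted p 0.00228 by edgeR), with no overlap between the sites.

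Bulk Spp1 did not follow the share of Spp1-high macrophages among the C1q-positive cells of the sorted libraries, which is an unlike measure. Its levels were 4644, 1669 and 7353 CPM, here reads per 1000000 reads, in the primary tumors and 2459, 2111 and 2921 in the liver tumors. The primary tumors held both the highest and the lowest value, so the groups overlapped. The log2 difference of liver over primary was -0.87 (SE 0.50, adjusted p 0.249 by edgeR), and without primary replicate 2 it was -1.26 with an adjusted p of 0.0234. In the single-cell libraries keratin-rich cells had carried 58.3% and 25.1% of Spp1 UMIs, and their part in the bulk level was not tested.

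C1qa stood at 83.8, 108 and 62.9 CPM in primary and 172, 138 and 130 CPM in liver tumors. Every liver tumor lay above every primary one, with a log2 difference of 0.79 (SE 0.24, adjusted p 0.0495 by edgeR). C1qc rose likewise by 0.97 (adjusted p 0.0425), and C1qb, at 0.79, had an adjusted p of 0.0884. C1qa and C1qc lost their calls when any library but primary replicate 2 was left out, with adjusted p of 0.0543 to 0.150 by edgeR. Without primary replicate 2, C1qb passed (adjusted p 0.00814).

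Lpl rose in the liver tumors. It stood at 28.5, 36.3 and 48.0 CPM in the primary and 84.2, 83.5 and 68.9 CPM in the liver tumors, without overlap. The log2 difference was 1.07 (SE 0.23, adjusted p 0.0113 by edgeR), and it was lost narrowly without liver replicate 1 (adjusted p 0.0501) or liver replicate 2 (0.0543). Ctsl rose from 242, 185 and 338 CPM to 736, 806 and 620 CPM, a log2 difference of 1.498 (SE 0.28, adjusted p 0.00647 by edgeR), with no overlap.

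Gpnmb, Trem2 and Fabp5 did not pass the test. Gpnmb stood at 11.999, 21.2 and 4.95 CPM in primary and 8.18, 7.65 and 3.69 CPM in liver tumors, with overlapping groups and an adjusted p of 0.224 by edgeR. Trem2 stood at 9.54, 13.3 and 5.89 CPM against 7.96, 7.82 and 7.53 CPM, also overlapping. Fabp5 stood at 38.5, 23.6 and 45.3 CPM against 56.9, 56.8 and 33.7 CPM, with overlap and an adjusted p of 0.306. Copies of Fabp5 and Gapdh elsewhere in the genome could take part of their reads, and how such reads were counted is not given in the sources used here.

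Of the 8 genes higher with Spp1 in both single-cell libraries, 5 rose in liver tumors and 1 fell, beside 16.7% and 6.26% of all genes, with a median log2 difference of 1.28. The 10 named genes lower with Spp1 moved likewise: 6 rose, with a median of 1.29. F7 rose by 4.995, Ccl24 by 2.61 (adjusted p 0.0183 by edgeR) and Cxcl14 by 2.30 on the log2 scale, beside Lpl and Ctsl. Ccl24 lost its call without liver replicate 1 or 2 (adjusted p 0.077 and 0.0605 by edgeR). Syngr1 fell by 1.69 (adjusted p 0.00233), and Gpnmb and Fabp5 did not pass. Hepatocytes make F7, and all 10 genes of the hepatocyte list rose in liver tumors, their median log2 difference being 9.86. Alb, the serum protein albumin of that list, stood at 0 in the primary and 7.9 CPM in the liver members, where all listed genes but Trf were under that level, and the part of liver tissue in the bulk values was not tested. Arg1, also a liver enzyme, rose by 4.61, from 31.7, 53.2 and 21.7 CPM to 1146, 842 and 608 CPM.

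The lipid-associated list moved in both directions in bulk. By edgeR 10 of its 26 genes rose and 4 fell with the liver site, beside 16.7% and 6.26% of all genes. The median log2 difference of the list was 0.30 beside -0.07 for all genes tested. Apoe rose by 4.37, Cd36 by 3.74 and Plin2, the coat protein of lipid droplets, by 1.21. Lgals3, a galectin, fell by 1.27 and Cd63, a lysosomal tetraspanin, by 1.10. Cd9 fell from 525, 595 and 677 CPM to 281, 253 and 364 CPM (log2 difference -1.0, adjusted p 0.0186 by edgeR) and lost its call without primary replicate 3, liver replicate 1 or liver replicate 2, and Lgals3 without liver replicate 2, where the list had 6 genes higher and 2 lower.

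Of 25 glycolysis and hypoxia genes, 11 fell in the liver tumors, beside 6.26% of all genes, the median log2 difference was -0.86 beside -0.07, and 0 rose by edgeR (also 0 at an unadjusted p under 0.05, and 0 by DESeq2). Of the 14 epithelial genes 4 fell as well, beside the same 6.26%, with a median of -1.01. The part of epithelial cells in the glycolysis values was not tested. The number of glycolysis genes that fell was 0 without liver replicate 2, 2 without liver replicate 1 and 5 without primary replicate 3. Ndrg1, a hypoxia-induced gene, fell by 2.08, Ero1l, an oxidase of protein folding, by 1.57 and Hilpda, a lipid droplet protein, by 1.46. Of 20 matrix genes 2 rose, beside 16.7% of all genes, Mmp19, a matrix protease, by 2.83 and Tgfbi, a matrix adhesion protein, by 1.5004, and 1 fell, beside 6.26% of all genes, Plaur, the urokinase receptor, by 1.01. The matrix genes that fell numbered 0 without liver replicate 1 or 2, 3 without primary replicate 2 and 2 without liver replicate 3. Of 10 osteopontin receptor genes 3 rose, beside 16.7% of all genes. These were the integrin chains Itga8, Itga9 and Itga4, by 3.998, 2.01 and 1.67. None fell by edgeR, beside 6.26% of all genes (3 at an unadjusted p under 0.05, and 0 by DESeq2). Cd44 stood at 872, 368 and 954 CPM in primary and 357, 356 and 552 CPM in liver tumors, with overlap, and fell without primary replicate 2 (log2 difference -1.11, adjusted p 0.0167 by edgeR). The receptors that fell numbered 2 without primary replicate 2 and 1 without primary replicate 1.

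**Figure D5:**
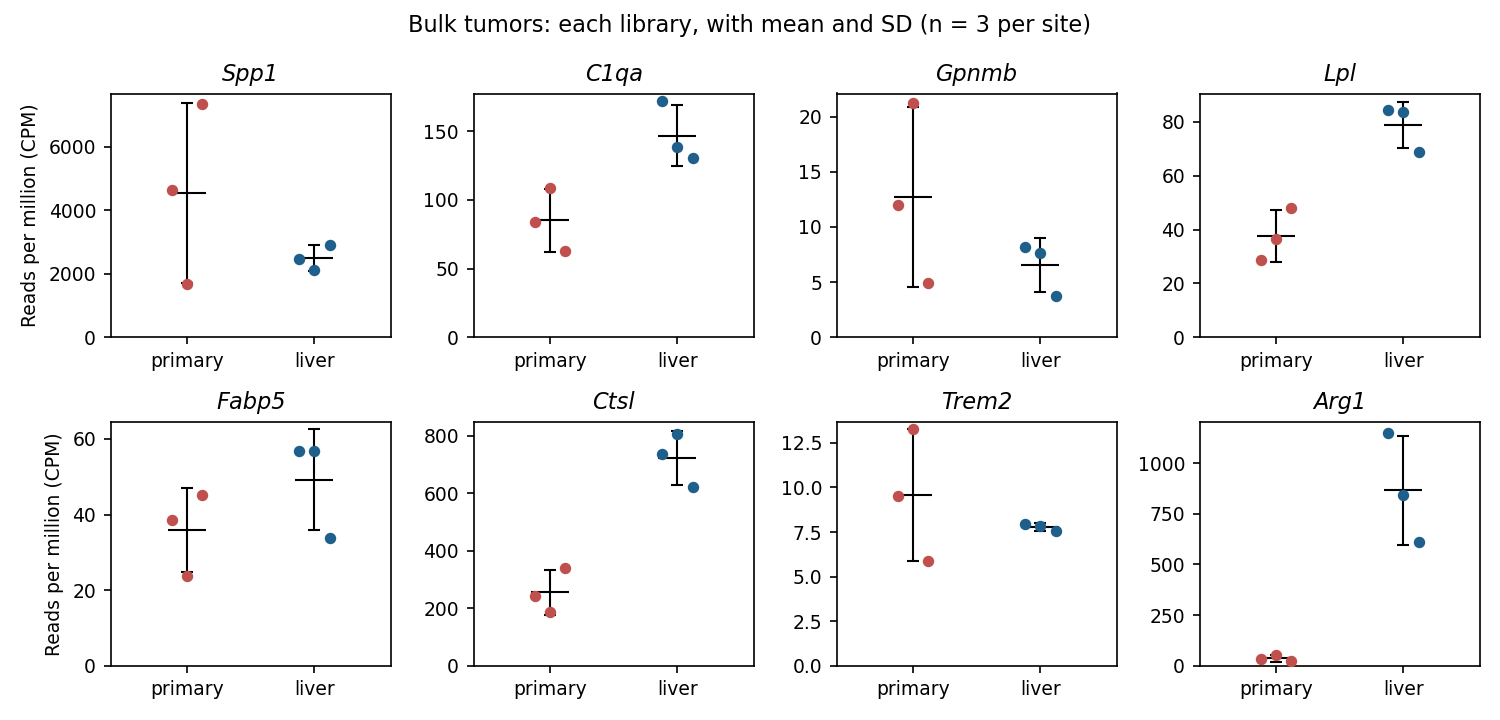
CPM in each bulk tumor library for 8 genes, primary and liver, with the mean and SD of 3 libraries per site as bars. Lpl, Ctsl, C1qa and Arg1 do not overlap between the sites, while Spp1, Gpnmb, Fabp5 and Trem2 do.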

How the data were processed

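Both kinds of file that the authors deposited hold counts: UMI counts of every listed barcode for the sorted cells, and unnormalized read counts by gene symbol for the tumors. Per the submitters' processing notes, bcl2fastq, Cell Ranger and mm10 were used. The bulk aligner and counter are not given in the sources used here, and the deposited normalized and FPKM tables were not used. UMIs were summed per library and class and scaled to 1000000 UMIs (CPM) with exact Poisson 95% intervals (scipy 1.17.1, Python 3.11.15), and ratios have exact conditional intervals. Genes of the gate and mitochondrial genes stayed out of the counts. Bulk counts were fitted with edgeR 4.0.16 (R 4.3.3): filterByExpr, TMM, glmQLFit with robust estimation on site alone, a two-sided glmQLFTest and Benjamini-Hochberg adjustment at 0.05, with DESeq2 1.42.0 as an alternative. Both scripts were tested on simulated data.

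The members, the 30 gene lists and the rules were chosen with earlier results of these data known. Named genes were the gate genes and markers, up to 10 genes per direction past the fold rule in both libraries, the 10 largest site ratios per direction at 100 CPM, and up to 4 of each list by level. Some genes under this rule are not reported here. Others were named after their values were seen, to describe single libraries or settings. Alternatives were other thresholds for Spp1, C1q, UMIs and mitochondrial UMIs, doublet removal, a mean over cells, another comparison class, in bulk other size factors, no filter, a replicate block and each library left out, and, chosen after seeing the data, leaving out the richest cell.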

Additional observations from a re-analysis of the deposited data

How the results depend on the processing

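Of the single-cell values of named genes under the alternatives, 480 stayed within the counting error of the main value and 158 moved. None reversed, but a reversal was counted only for genes past the fold rule in the main setting. Doublet removal took out no member, and in the liver library no cell of either class, so its liver values could not move. With Spp1 of at least 10, the members were 6.35% of primary and 45.7% of liver cells, and 84 genes were higher in liver members. With Spp1 of at least 50 these shares were 1.28% and 16.6%, with 164 genes higher and 246 lower than other cells in the primary library and 20 higher in the liver library. A mean over cells gave 200 genes higher in liver members. Against all other called cells with C1q, 9 genes were lower in both libraries and 50 in the liver library. Leaving out the richest cell for each gene in each class, which was chosen after seeing the data, left 6 genes higher in both.

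In bulk, leaving out 1 library moved the genes higher in liver tumors from 1810 to 3346 and those lower from 134 to 1468. The lipid-associated genes ranged from 6 to 11 higher and 2 to 4 lower, glycolysis genes from 0 to 11 lower, matrix genes from 0 to 3 lower and osteopontin receptors from 0 to 2 lower. Without a filter on low counts 1 osteopontin receptor was lower, and with DESeq2 2 matrix genes were lower. Trem2 ranged from -0.56 to 0.012 on the log2 scale, reversing without primary replicate 2, and Fabp4 from -0.049 to 0.33, reversing without primary replicate 3 (-0.047) or liver replicate 1. The cause of these shifts was not tested. Correlations of same-numbered deviations from the site means were -0.18, 0.25 and 0.09. With 3 libraries per site these cannot decide whether replicate numbers pair the tumors. With a replicate block 2703 genes were higher and 873 lower, and C1qb passed (0.87, adjusted p 0.0427 by edgeR). Of the values of named bulk genes, 263 kept their direction and whether they passed the test, 29 no longer passed, 5 newly passed and 3 changed sign. The limits are 1 library per site, 50 primary members, and Spp1 UMIs in liver T cells at a median of 3.25 per 10000.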
